A study of Mus musculus with 12 samples.

Results

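The genes described here are the 44 protein-coding collagen genes of the mouse, from Col1a1 to Col28a1, among the 49585 genes of the count tables. They were chosen by symbol alone (Col, a number, a, a number), all 44 were found and all 44 had at least 0.5 CPM (counts scaled to the total of the library) in at least 1 library, so all were tested. Exons of 13 of them overlap those of another annotated gene, over at most 6.07% of their length (Col9a3). RNA was taken from 4 sorted stromal populations of wild-type male C57BL/6 mice aged 8 to 10 weeks, with 3 libraries of 2000 cells in each. Itga8+ MSCs were Itga8+Alcam+Sca-1-, Itga8-Alcam+ BLCs (bone-lining cells, which the labels call osteoblasts) were Itga8-Alcam+Sca-1-, Sca-1+ MSCs were Alcam-Sca-1+, and CD51+CD140a+ MSCs were sorted on these 2 proteins, all after CD45+, Ter119+ and CD31+ cells had been set aside. The first 3 populations came from collagenase-treated fragments of femur, tibia and iliac bone, and the CD51+CD140a+ MSCs from flushed marrow treated with Accumax, so in each comparison with CD51+CD140a+ MSCs the population cannot be told apart from the tissue and its digestion. They are called Itga8+, Itga8-, Sca-1+ and CD51+CD140a+ cells from here. The labels do not say whether the libraries of a population came from separate mice, and p-values then measure the spread between these libraries, which may be technical.

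Collagens are secreted proteins of 3 chains wound into a triple helix, and the chains of a type are often the products of separate genes. Fibrillar collagens (types I, II, III, V, XI, XXIV and XXVII) build the fibrils of bone, cartilage, tendon and skin, and the FACIT collagens, such as types IX, XII and XIV, lie on the surface of those fibrils. Type IV forms the network of basement membranes, type VI forms beaded filaments around cells, type VIII and type X form hexagonal networks, multiplexins (types XV and XVIII) sit at basement membranes, and types XIII, XVII, XXIII and XXV span the cell membrane. In the skeleton, type I is the main protein of bone, types II, IX and XI form the cartilage fibril, and type X marks hypertrophic cartilage.

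Library totals on genes ran from 17580677 to 31332475 reads. A gene with 3 counts or fewer was taken as at the floor, which came to 0.0820 to 0.1799 CPM after TMM scaling. The sorted proteins' genes followed the labels for Itga8 between the Alcam+ populations (103 against 1.74 CPM, means of 3) and for Ly6a, which encodes Sca-1 (636 CPM in Sca-1+ cells and at most 27.5 CPM elsewhere). Itga8 also stood at 64.4 CPM in CD51+CD140a+ cells, a population not sorted on it. Alcam was low throughout, with 3.01 and 4.92 CPM in the Alcam+ populations and 0.139 and 0.0310 CPM in the others. In bulk samples, fewer cells of a type and less RNA per cell cannot be told apart.

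Genes of other cell types were read beside the collagens. Those of the leptin receptor stromal cells of marrow (Lepr, Cxcl12, Kitl, Adipoq, Foxc1 and Ebf3) summed to 44723 to 61184 CPM in CD51+CD140a+ cells and to 201 to 740 CPM in the other 9 libraries. Blood genes, 8 in number, summed to 406 to 2193 CPM in Itga8+ cells, with the highest sum in replicate 2, and to 712 to 1091 CPM in Itga8- cells, 197 to 206 CPM in Sca-1+ cells and 256 to 320 CPM in the other population. The sums were at most 42.02 CPM for 7 skeletal muscle genes and at most 580.1 CPM for 6 smooth muscle and pericyte genes in any library.

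The collagen genes varied more between libraries of the Alcam+ populations than between those of the other 2. The highest library over the lowest was a median of 8.44-fold over 36 members in Itga8+ cells and 4.62-fold over 38 members in Itga8- cells (members over the floor in all 3 libraries), against 2.65-fold and 2.12-fold over all such genes. In Sca-1+ and CD51+CD140a+ cells the medians were 1.66-fold over 36 members and 2.40-fold over 33 members, against 1.38-fold and 1.46-fold over all genes. Itga8+ replicate 2 held the lowest value of its population for 35 of 42 members and replicate 3 the highest for 36, and in Itga8- cells replicate 2 was highest for 37 of 42 and replicate 3 lowest for 32. Collagen genes have long exons (median 7543 bases, against 4589 over 9146 genes with a mean of at least 10 CPM), and the same libraries differed by length over all genes. As log2 deviations from the mean of their own population, the median of the longest genes (over 6014 bases) minus that of the shortest (under 3425 bases) was -1.17 in Itga8+ replicate 2 and -0.76 in Itga8- replicate 3, 0.90 in Itga8+ replicate 3 and 0.86 in Itga8- replicate 2, and between -0.16 and 0.20 in the other 8 libraries. With each library's trend with length removed, none of the 130 calls given next was lost.

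**Figure D1:**
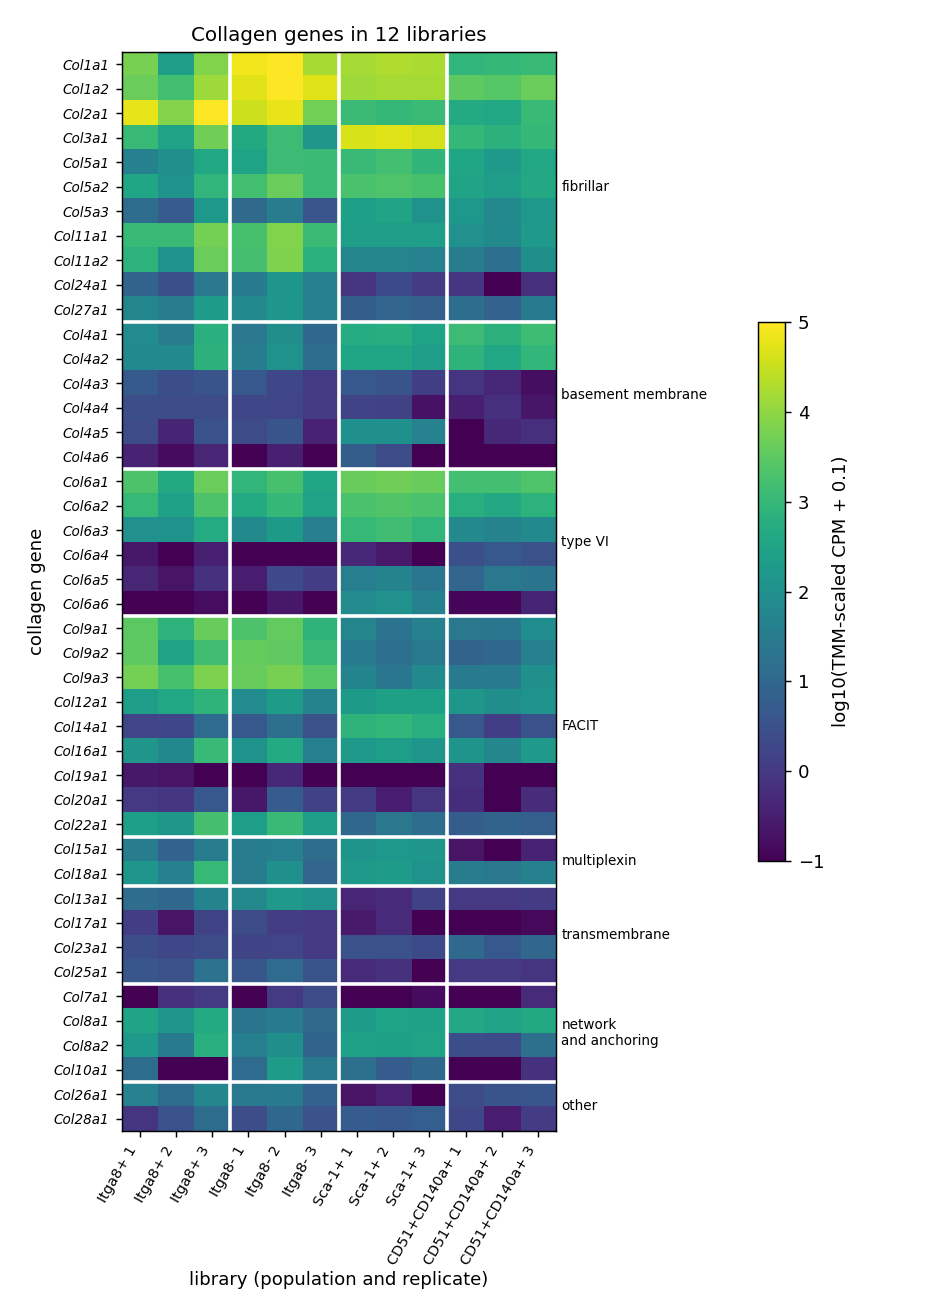
Level of each of the 44 collagen genes (rows, grouped by class) in each of the 12 libraries (columns) as log10 of TMM-scaled CPM + 0.1. Col2a1 and Col9a1 to Col9a3 are bright in the 6 libraries of Itga8+ cells and Itga8- cells, Col3a1 and Col14a1 in the 3 libraries of Sca-1+ cells, and Itga8+ replicate 2 and Itga8- replicate 3 are dim across their populations.

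The collagen genes took up very different parts of the libraries. Their share of all counts was 10.4%, 1.56% and 16.3% in the 3 libraries of Itga8+ cells, 18.2%, 32.0% and 6.79% in Itga8- cells, 8.98%, 10.1% and 8.94% in Sca-1+ cells, and 1.38%, 1.02% and 1.59% in CD51+CD140a+ cells. The means were 9.44% ± 7.42, 19.0% ± 12.6, 9.34% ± 0.654 and 1.33% ± 0.288 (SD, n = 3), and the shares of the first 3 populations overlapped. The mean was 6.00% in Itga8+ cells without replicate 3 and 12.5% in Itga8- cells without replicate 2. Itga8+ replicate 2 fell inside the range of CD51+CD140a+ cells, and the other 8 libraries from bone lay above it. What made up the share was steadier than its size. Col1a1 and Col1a2, the 2 chains of type I collagen, held 10.9% to 12.1% of the collagen counts in Itga8+ cells, 71.2% to 80.7% in Itga8- cells, 32.3% to 37.7% in Sca-1+ cells and 35.4% to 40.2% in CD51+CD140a+ cells. The ranges of Itga8+ cells and Itga8- cells overlapped with no other range.

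Each population had its own leading collagen, compared here in TPM, which also divides by gene length. In Itga8+ cells Col2a1 held 54.3% of the mean collagen TPM (23261 ± 20378 TPM, SD, n = 3), followed by Col9a3 with 10.2%. In Itga8- cells Col1a1 held 39.4%, Col1a2 30.5% and Col2a1 14.5%. Without Itga8- replicate 1 Col1a2 (30709 TPM) passed Col1a1 (29715 TPM), and in Itga8- replicate 3 alone Col1a2 (9087 TPM) was above Col1a1 (5762 TPM) and Col9a3 (1638 TPM) above Col2a1 (1294 TPM). In the other 3 populations the leading gene was the same in each library. In Sca-1+ cells Col3a1, the fibrillar chain of soft connective tissue, held 42.9%, ahead of Col1a1 with 24.4%. In CD51+CD140a+ cells no fibrillar chain led, and Col6a1 held 26.5%, Col1a2 17.6%, Col1a1 9.80% and Col4a1 9.67%. By class, fibrillar collagens were still the largest in CD51+CD140a+ cells, at 44.2% to 45.1% of the collagen TPM. Type VI made up 29.5% to 36.2% there and basement membrane collagen 12.6% to 19.3%. In the 9 libraries from bone type VI and basement membrane collagens reached at most 13.2% and 1.34%. FACIT collagens made up 16.5% to 36.3% in Itga8+ cells, 7.77% to 14.2% in Itga8- cells, 1.54% to 1.84% in Sca-1+ cells and 2.59% to 4.62% in CD51+CD140a+ cells.

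**Figure D2:**
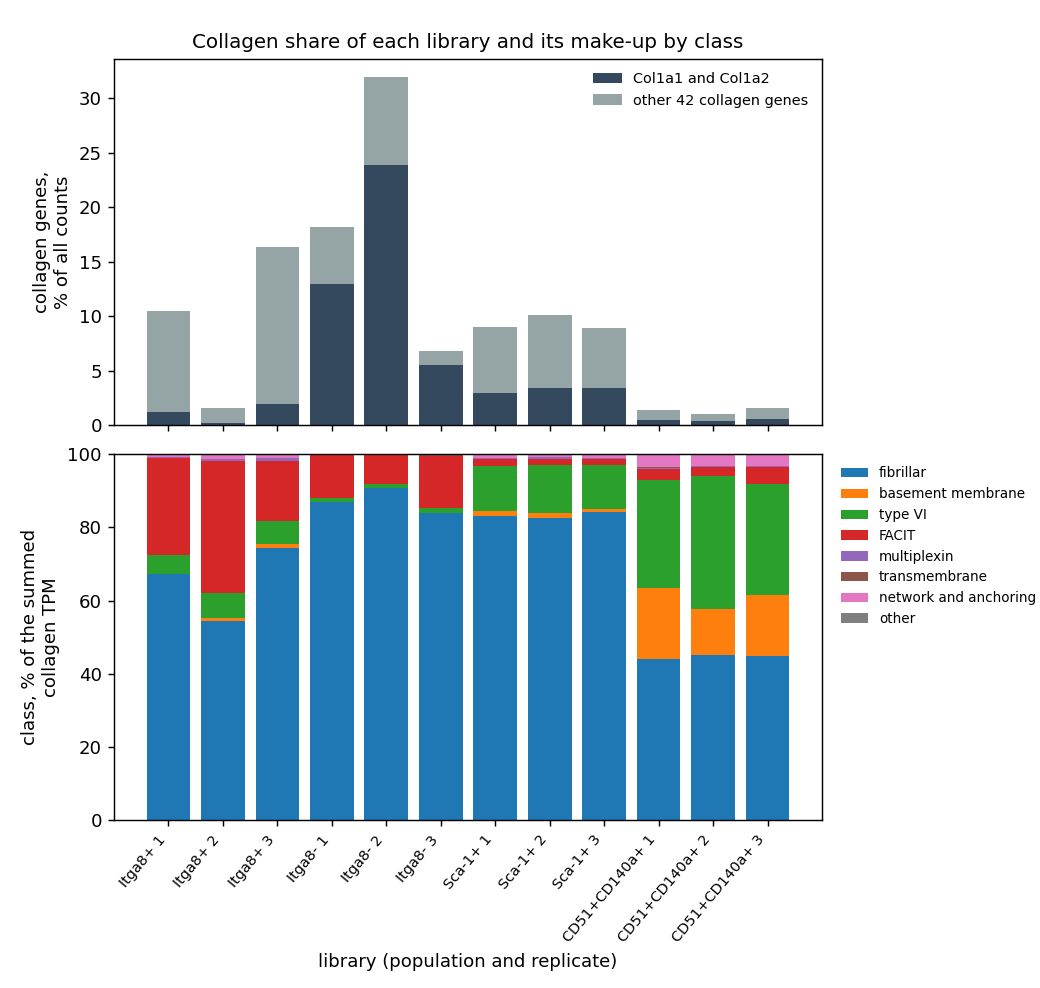
Top, the percentage of all counts on the 44 collagen genes in each library, with Col1a1 and Col1a2 dark and the other 42 genes light. Bottom, the percentage of the summed collagen TPM held by each class in the same libraries. Col1a1 and Col1a2 hold most of the bar in Itga8- cells (71.2% to 80.7%) and little of it in Itga8+ cells (10.9% to 12.1%), and basement membrane and type VI collagens are widest in CD51+CD140a+ cells.

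The 4 populations give 6 pairwise comparisons, which share libraries. A single edgeR quasi-likelihood fit held the 12 libraries and 18648 genes. A gene was called at an adjusted p (Benjamini-Hochberg over all genes tested) under 0.1 and a fold above 2. Signed log2 fold changes are those of the first population over the second, taken in the order Itga8+, Itga8-, Sca-1+ and CD51+CD140a+. Between Itga8+ cells and Itga8- cells, 2 of the 44 collagen genes were called higher in the first and 4 higher in the second, where 1.66% and 2.16% of all genes were. With 1 library left out these were 1 to 4 and 1 to 5. The 6 calls became 10 with DESeq2, 3 with the replicate number as a block, 2 at an adjusted p under 0.05 and 1 with the 6 libraries of the 2 populations fitted alone. Against Sca-1+ cells, 12 collagen genes were higher in Itga8+ cells and 9 lower (12.9% and 8.89% of all genes), and 13 were higher in Itga8- cells and 15 lower (14.5% and 11.9%). The 9 became 15 without Itga8+ replicate 3, and the 15 became 8 without Itga8- replicate 1 and 7 without Itga8- replicate 3. Against CD51+CD140a+ cells, 24 were higher in Itga8+ cells and 3 lower (21.2% and 14.3%), 23 were higher in Itga8- cells and 7 lower (20.4% and 14.9%), and 15 were higher in Sca-1+ cells and 3 lower (11.2% and 9.30%). The 3 below CD51+CD140a+ cells in Itga8+ cells became 7 without Itga8+ replicate 3. Over the 44 genes the median log2 fold change was 2.49, 2.65 and 1.13 in these last 3 comparisons, against 0.18, 0.091 and -0.0026 over all genes. It was 0.25, 0.17 and 0.11 in the comparisons of Itga8+ with Itga8-, Itga8+ with Sca-1+ and Itga8- with Sca-1+, against 0.084, 0.16 and 0.12. These 3 medians turned sign when 1 library was left out. The first was -0.66 without Itga8+ replicate 3, -0.024 without Itga8- replicate 3 and 0.95 without Itga8- replicate 2, the second -0.75 without Itga8+ replicate 3, and the third -0.63 without Itga8- replicate 2. Over CD51+CD140a+ cells the medians fell to 1.35 in Itga8+ cells without replicate 3 and to 1.71 in Itga8- cells without replicate 2.

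In all, 130 of the 264 pairs of a gene and a comparison were called, over 40 of the 44 genes, and in 122 of them (46.2% of the 264) no library of 1 population overlapped with a library of the other, against 22.4% of such pairs over all genes tested. In 21 further pairs the libraries did not overlap and the pair was not called, which makes 143 (54.2%) without overlap, against 39.6% over all genes. Each of the 122 had an exact two-sided permutation p of 0.1, the smallest that 3 libraries against 3 allow. With each library left out in turn, 97 of the 130 calls held in all 12 fits, and in 77 of these the fitted fold moved by over 1.5 times in at least 1 fit. Most of those moves came without Itga8- replicate 2 (28 calls), Itga8+ replicate 3 (26) or CD51+CD140a+ replicate 3 (22), and the folds without such a library stand beside those printed for the gene. Reading the calls together, 12 collagen genes (27.3%) were higher in both Alcam+ populations than in both others, against 5.60% of all genes, and 1, Col6a5, was lower in both, against 2.99%. In Sca-1+ cells 6 members were above each other population (2.75% of all genes) and 1 below (1.86%), in CD51+CD140a+ cells 2 above (5.11%) and 5 below (6.45%), and in Itga8- cells 2 above (1.09%) and 1 below (0.585%). In Itga8+ cells 0 members were above (0.504%) or below (0.397%) each other population by this edgeR rule.

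**Figure D3:**
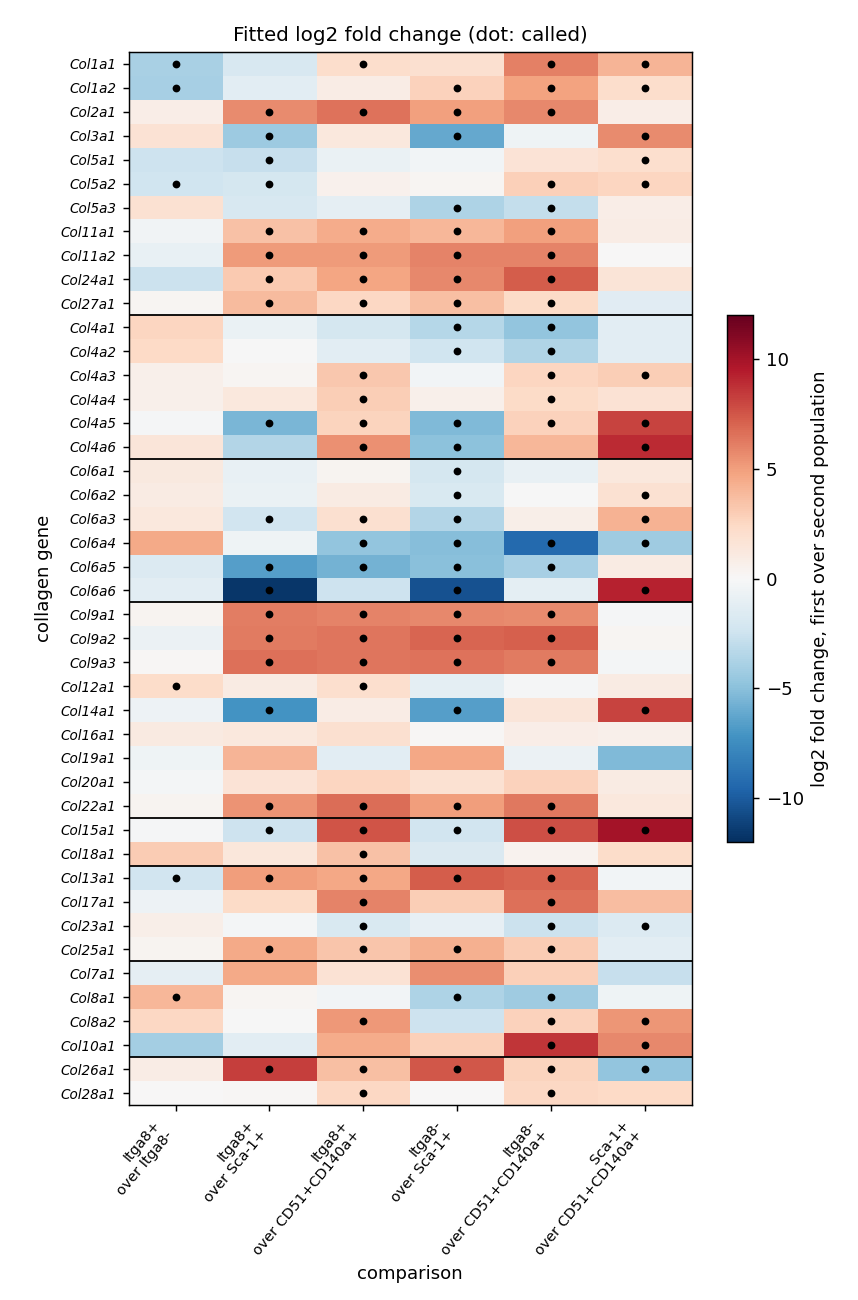
Fitted log2 fold change of the first population over the second for the 44 collagen genes (rows, with lines between classes) in the 6 comparisons (columns), red where the first is higher and blue where the second is, with a dot on each of the 130 called pairs. The first column holds 6 dots, and the rows of Col2a1, Col9a1 to Col9a3, Col11a1 and Col11a2 are red with dots in the next 4 columns.

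Type I collagen, of which Col1a1 (chr11:94936224-94953042, mm10) and Col1a2 (chr6:4504814-4541544) encode the chains, was highest in Itga8- cells. They are 2 of 11 fibrillar genes. Of these, 8 were called higher and 1 lower in Itga8- cells than in CD51+CD140a+ cells (20.4% and 14.9% of all genes). In Itga8+ cells 0 were called higher and 3 lower than in Itga8- cells (1.66% and 2.16%), and 0 of 11 beside such a share is no result. Col1a1 was at 5952, 213 and 7217 CPM in Itga8+ cells and 75945, 107157 and 16656 CPM in Itga8- cells. In Sca-1+ cells Col1a1 was at 15135, 18954 and 17694 CPM, and in CD51+CD140a+ cells 899.7, 998 and 1121 CPM. Col1a2 was at 4203, 1505 and 13203 CPM in Itga8+ cells and 53363, 197834 and 49738 CPM in Itga8- cells. In Sca-1+ cells Col1a2 was at 13258, 15647 and 15532 CPM, and in CD51+CD140a+ cells 3271, 2673 and 4321 CPM. All 3 libraries of Itga8- cells lay above all 3 of Itga8+ cells for both genes, and Itga8+ replicate 2 was the lowest of all 12 for both. Col1a1 was higher in Itga8- cells than in Itga8+ cells by 14.9-fold (log2 SE 0.97, adjusted p = 0.0592) and Col1a2 by 15.9-fold (log2 SE 0.76, adjusted p = 0.0153). Against CD51+CD140a+ cells, Itga8- cells were higher by 66.2-fold (log2 SE 1.08, adjusted p = 0.00136) for Col1a1 and 29.3-fold (log2 SE 0.80, adjusted p = 0.000802) for Col1a2. Sca-1+ cells also exceeded CD51+CD140a+ cells, by 17.2-fold (log2 SE 0.98, adjusted p = 0.0116) and 4.33-fold (log2 SE 0.71, adjusted p = 0.0614). Itga8- cells exceeded Sca-1+ cells for Col1a2, by 6.77-fold (log2 SE 0.72, adjusted p = 0.0189), and the same comparison of Col1a1 was not called (log2 fold change 1.95, SE 0.89, adjusted p = 0.142), with Itga8- replicate 3 inside the range of Sca-1+ cells. Col1a1 was called higher in Itga8+ than in CD51+CD140a+ cells (4.43-fold, adjusted p = 0.0911) although Itga8+ replicate 2, at 213 CPM, lay below all 3 CD51+CD140a+ libraries. This call held only without Itga8+ replicate 2 or Itga8- replicate 2 or 3 among the fits that left out 1 library (log2 fold change 1.64 to 2.73 over the 12 fits without 1 library). Leaving out Itga8+ replicate 1, Itga8- replicate 1 or Itga8- replicate 2 also ended the Col1a1 call between the Alcam+ populations, whose log2 fold change stayed between -4.41 and -3.32, while the Col1a2 call held in all 12. With the 6 Alcam+ libraries fitted alone both calls were lost, and with the replicate block that of Col1a1 was. The Col1a2 call between Sca-1+ and CD51+CD140a+ cells was lost without Sca-1+ replicate 1, 2 or 3 or CD51+CD140a+ replicate 1, 2 or 3 (log2 fold change 1.96 to 2.32 over the 12 fits without 1 library). Col1a2 gave a fold of 34.8 (Itga8- over Itga8+) without Itga8+ replicate 3. Col1a2 had folds of 8.06 (Itga8- over Itga8+), 3.38 (Itga8- over Sca-1+) and 15.0 (Itga8- over CD51+CD140a+) without Itga8- replicate 2.

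Between the Alcam+ populations, osteoblast genes moved with type I collagen. The summed CPM of 9 osteoblast genes (Bglap, Bglap2, Ibsp, Sp7, Runx2, Alpl, Dmp1, Phex and Mepe) was 484 to 1009.9 in Itga8+ cells, 7999 to 20207 in Itga8- cells, 498 to 741 in Sca-1+ cells and 7357 to 16473 in CD51+CD140a+ cells. Of the 9, 8 were called higher in Itga8- cells than in Itga8+ cells, beside 2.16% of all genes. In CD51+CD140a+ cells the sum came mainly from Ibsp (10118 CPM), with Bglap at 6.18 CPM against 3304 CPM in Itga8- cells. The part of osteoblasts in the collagen levels was not tested.

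The windows around the gene starts are shown for 5 members, each leading a pattern described here, with 250 bases before to 50 bases after the start of the gene in RefSeq (GRCm38.p6), on the gene's own strand. For Col1a2, the chain of type I collagen that has a window (chr6:4505368-4505667, plus strand), capitals mark CCAAT or GGGCGG on either strand.

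Col1a2: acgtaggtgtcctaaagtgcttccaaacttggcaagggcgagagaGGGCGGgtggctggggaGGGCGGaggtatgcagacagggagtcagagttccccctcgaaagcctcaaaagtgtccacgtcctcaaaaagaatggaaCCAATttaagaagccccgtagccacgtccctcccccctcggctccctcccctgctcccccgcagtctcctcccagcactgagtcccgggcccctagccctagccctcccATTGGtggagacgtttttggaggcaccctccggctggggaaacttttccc

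Col3a1 (chr1:45311538-45349706) was the collagen of Sca-1+ cells. It stood at 1098, 293 and 5036 CPM in Itga8+ cells and 450.2, 1297 and 146 CPM in Itga8- cells. In Sca-1+ cells Col3a1 was at 44461, 50189 and 41326 CPM, and in CD51+CD140a+ cells 1013, 716 and 1007 CPM. The 3 Sca-1+ libraries lay above the other 9, and the other 3 populations overlapped. Col3a1 was higher in Sca-1+ cells than in Itga8+ cells by 21.2-fold (log2 SE 0.97, adjusted p = 0.0104), than in Itga8- cells by 71.8-fold (log2 SE 1.06, adjusted p = 0.00187) and than in CD51+CD140a+ cells by 49.7-fold (log2 SE 1.03, adjusted p = 0.00214). Between the Alcam+ populations it was not called (log2 fold change 1.76, SE 0.87, adjusted p = 0.461). Col3a1 gave a fold of 66.3 (Sca-1+ over Itga8+) without Itga8+ replicate 3. Col3a1 had a fold of 156 (Sca-1+ over Itga8-) without Itga8- replicate 2. Its window (chr1:45311288-45311587, plus strand) has a GC content of 37.7%, against a median of 59.8% over the 38 windows of collagen genes, and capitals mark its 1 TATAAA.

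Col3a1: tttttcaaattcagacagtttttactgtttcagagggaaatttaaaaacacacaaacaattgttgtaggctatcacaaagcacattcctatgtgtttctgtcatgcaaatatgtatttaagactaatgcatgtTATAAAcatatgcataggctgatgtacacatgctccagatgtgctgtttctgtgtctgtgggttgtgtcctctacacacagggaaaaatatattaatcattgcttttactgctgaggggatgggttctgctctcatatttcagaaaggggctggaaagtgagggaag

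Type V collagen, which joins type I in mixed fibrils and limits their width, is encoded by Col5a1, Col5a2 and Col5a3. Col5a2 read 349, 124 and 905 CPM in Itga8+ cells and 1527, 4286 and 1206 CPM in Itga8- cells. In Sca-1+ cells Col5a2 was at 1859, 2284 and 1819 CPM, and in CD51+CD140a+ cells 318, 228 and 421 CPM. It was lower in Itga8+ cells than in Itga8- cells by 5.09-fold (log2 SE 0.65, adjusted p = 0.0949). This call held only without Itga8+ replicate 3 among the fits that left out 1 library (log2 fold change -3.29 to -1.55 over the 12 fits without 1 library). It was also lower in Itga8+ than in Sca-1+ cells by 4.33-fold (log2 SE 0.65, adjusted p = 0.0460). This call was lost without Itga8+ replicate 1 or Sca-1+ replicate 2 (log2 fold change -3.10 to -1.68 over the 12 fits without 1 library). Both Itga8- cells and Sca-1+ cells exceeded CD51+CD140a+ cells, by 7.25-fold (log2 SE 0.66, adjusted p = 0.00705) and 6.16-fold (log2 SE 0.66, adjusted p = 0.0154). Col5a1 read 43.2, 105 and 379 CPM in Itga8+ cells and 294, 1315 and 1260.2 CPM in Itga8- cells. In Sca-1+ cells Col5a1 was at 1146, 1594 and 863 CPM, and in CD51+CD140a+ cells 349.8, 164 and 400.1 CPM, so that the Itga8+ libraries overlapped with the lowest Itga8- library. It was lower in Itga8+ cells than in Sca-1+ cells by 6.83-fold (log2 SE 0.76, adjusted p = 0.0295) and higher in Sca-1+ than in CD51+CD140a+ cells by 3.94-fold (log2 SE 0.74, adjusted p = 0.0925). Of these calls, the last was lost without Itga8- replicate 3, Sca-1+ replicate 1, 2 or 3 or CD51+CD140a+ replicate 1, 2 or 3 (log2 fold change 1.68 to 2.23 over the 12 fits without 1 library). Col5a3 had another order, with 12.8, 5.56 and 158 CPM in Itga8+ cells and 12, 35.5 and 3.72 CPM in Itga8- cells. In Sca-1+ cells Col5a3 was at 241, 313 and 117 CPM, and in CD51+CD140a+ cells 161, 67.1 and 155 CPM. The Itga8- libraries lay below all Sca-1+ and CD51+CD140a+ libraries, by 13.1-fold (log2 SE 1.15, adjusted p = 0.0390), a call lost without Itga8- replicate 1 or 3 (log2 fold change -4.86 to -3.23 over the 12 fits without 1 library), and by 7.47-fold (log2 SE 1.11, adjusted p = 0.0670). Of these calls, the last was lost without Itga8- replicate 1 or 3 or CD51+CD140a+ replicate 1 or 3 (log2 fold change -4.02 to -2.43 over the 12 fits without 1 library). Col5a1 gave a fold of 16.8 (Sca-1+ over Itga8+) without Itga8+ replicate 3. Col5a2 gave a fold of 4.22 (Itga8- over CD51+CD140a+) without Itga8- replicate 2.

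The collagens of cartilage were high in both Alcam+ populations and low in both others. Col2a1 (chr15:97975602-98004695), the main fibril chain of cartilage, was at 60210.0, 7596 and 105479 CPM in Itga8+ cells and 34294, 63149 and 5269 CPM in Itga8- cells. In Sca-1+ cells Col2a1 was at 1248, 973 and 1240.2 CPM, and in CD51+CD140a+ cells 455, 395 and 1089 CPM. Even the lowest Alcam+ library, Itga8- replicate 3, was above the highest of the other 6. Itga8+ cells exceeded Sca-1+ cells by 50.1-fold (log2 SE 1.04, adjusted p = 0.00388) and CD51+CD140a+ cells by 89.4-fold (log2 SE 1.08, adjusted p = 0.000944), and Itga8- cells exceeded them by 29.7-fold (log2 SE 1.00, adjusted p = 0.00543) and 53.0-fold (log2 SE 1.04, adjusted p = 0.00161). The Alcam+ populations overlapped and were not called different (log2 fold change 0.75, SE 0.86, adjusted p = 0.847). Sca-1+ and CD51+CD140a+ cells also overlapped (log2 fold change 0.84, SE 0.86, adjusted p = 0.617). Col2a1 gave folds of 28.9 (Itga8+ over Sca-1+) and 53.0 (Itga8+ over CD51+CD140a+) without Itga8+ replicate 3. Col2a1 had folds of 136 (Itga8+ over CD51+CD140a+) and 80.6 (Itga8- over CD51+CD140a+) without CD51+CD140a+ replicate 3. Col2a1 had folds of 16.7 (Itga8- over Sca-1+) and 30.6 (Itga8- over CD51+CD140a+) without Itga8- replicate 2.

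The 3 chains of type IX collagen, a FACIT that coats cartilage fibrils, followed Col2a1. Col9a1 was at 3157, 755 and 4104 CPM in Itga8+ cells and 2102, 3605 and 791 CPM in Itga8- cells. In Sca-1+ cells Col9a1 was at 53.6, 19.6 and 43.1 CPM, and in CD51+CD140a+ cells 24.9, 22.8 and 82.0 CPM. Col9a2 was at 3303, 289 and 1469 CPM in Itga8+ cells and 3851, 3455 and 1171 CPM in Itga8- cells. In Sca-1+ cells Col9a2 was at 27.7, 15.1 and 26.1 CPM, and in CD51+CD140a+ cells 7.90, 9.98 and 41.0 CPM. Col9a3 was at 5627, 1795 and 6538 CPM in Itga8+ cells and 3959, 5822 and 2781 CPM in Itga8- cells. In Sca-1+ cells Col9a3 was at 49.96, 22.5 and 68.6 CPM, and in CD51+CD140a+ cells 31.4, 27.5 and 103 CPM. Of the 9 FACIT genes, these 3 and Col22a1 were called higher in each Alcam+ population than in Sca-1+ cells. Over all genes 12.9% were higher in Itga8+ cells and 14.5% in Itga8- cells. Col14a1 was called lower in each (8.89% and 11.9% of all genes), and 4 of the 9 were not called. In each of the 3 type IX genes all 6 Alcam+ libraries lay above all 6 others. Across the 4 comparisons between an Alcam+ population and another, the folds ran from 50.1 (Col9a1, Itga8- cells over CD51+CD140a+ cells) to 144 (Col9a2, the same comparison), with adjusted p from 8.74e-05 to 0.00167, and all 12 of these calls held under every alternative. The Alcam+ populations did not separate, with log2 fold changes of 0.30, -0.74 and 0.15 (SE 0.71, 0.79 and 0.61). Col9a1 gave folds of 112 (Itga8+ over CD51+CD140a+) and 90.9 (Itga8- over CD51+CD140a+) without CD51+CD140a+ replicate 3. Col9a1 had folds of 36.2 (Itga8- over Sca-1+) and 33.4 (Itga8- over CD51+CD140a+) without Itga8- replicate 2. Col9a2 gave folds of 38.3 (Itga8+ over Sca-1+) and 44.8 (Itga8+ over CD51+CD140a+) without Itga8+ replicate 1. Col9a2 had folds of 189 (Itga8+ over CD51+CD140a+) and 316 (Itga8- over CD51+CD140a+) without CD51+CD140a+ replicate 3. Col9a3 gave folds of 158 (Itga8+ over CD51+CD140a+) and 142 (Itga8- over CD51+CD140a+) without CD51+CD140a+ replicate 3. The Col9a2 window (chr4:121039316-121039615, plus strand) is shown as 1 of this group, with GGGCGG on either strand in capitals.

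Col9a2: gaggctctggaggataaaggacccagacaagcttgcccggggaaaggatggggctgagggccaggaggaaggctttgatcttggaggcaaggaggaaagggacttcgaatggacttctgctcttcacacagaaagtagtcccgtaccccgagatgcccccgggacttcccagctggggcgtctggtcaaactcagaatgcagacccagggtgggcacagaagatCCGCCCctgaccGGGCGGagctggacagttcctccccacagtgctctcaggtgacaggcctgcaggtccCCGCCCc

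Type XI collagen, the thin core of the cartilage fibril, showed the same split of both Alcam+ populations from the others. Between the Alcam+ populations neither Col11a1 nor Col11a2 was called, and the libraries overlapped. The mean of Itga8- cells was the higher, but without Itga8- replicate 2 it fell below that of Itga8+ cells in both genes. Col11a1 was at 1147, 1090.0 and 5448 CPM in Itga8+ cells and 1817, 7484 and 1242 CPM in Itga8- cells. In Sca-1+ cells Col11a1 was at 217, 223 and 217 CPM, and in CD51+CD140a+ cells 107, 70.4 and 178 CPM. Col11a2 was at 766, 112 and 4247 CPM in Itga8+ cells and 1716, 6979 and 693 CPM in Itga8- cells. In Sca-1+ cells Col11a2 was at 54.4, 52.3 and 44.8 CPM, and in CD51+CD140a+ cells 34.7, 15.3 and 99.4 CPM. Every Alcam+ library was above every other library in both genes. The smallest of the 8 folds between an Alcam+ population and another was 11.69 (Col11a1, Itga8+ over Sca-1+ cells, adjusted p = 0.0110) and the largest 62.8 (Col11a2, Itga8- cells over CD51+CD140a+ cells, adjusted p = 0.00538). Col11a1 gave folds of 4.96 (Itga8+ over Sca-1+) and 9.39 (Itga8+ over CD51+CD140a+) without Itga8+ replicate 3. Col11a1 had folds of 6.78 (Itga8- over Sca-1+) and 12.8 (Itga8- over CD51+CD140a+) without Itga8- replicate 2. Col11a2 gave folds of 8.56 (Itga8+ over Sca-1+) and 8.88 (Itga8+ over CD51+CD140a+) without Itga8+ replicate 3. Col11a2 had folds of 68.2 (Itga8+ over CD51+CD140a+) and 125 (Itga8- over CD51+CD140a+) without CD51+CD140a+ replicate 3. Col11a2 had folds of 23.2 (Itga8- over Sca-1+) and 24.1 (Itga8- over CD51+CD140a+) without Itga8- replicate 2.

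The fibrillar chains Col24a1 and Col27a1 belonged to the 12. Col24a1 was at 8.02, 2.75 and 24.3 CPM in Itga8+ cells and 30.9, 145 and 38.8 CPM in Itga8- cells. In Sca-1+ cells Col24a1 was at 0.719, 2.19 and 1.03 CPM, and in CD51+CD140a+ cells 0.792, 0 and 0.548 CPM, and the 3 Itga8- libraries lay above all 9 others. It exceeded Sca-1+ cells by 8.84-fold (log2 SE 1.05, adjusted p = 0.0631) in Itga8+ cells, a call lost without Itga8+ replicate 3 or Sca-1+ replicate 1, 2 or 3 (log2 fold change 2.01 to 3.72 over the 12 fits without 1 library), and by 54.2-fold (log2 SE 1.17, adjusted p = 0.00506) in Itga8- cells, and CD51+CD140a+ cells by 25.8-fold (log2 SE 1.13, adjusted p = 0.00896) and 158-fold (log2 SE 1.26, adjusted p = 0.00112). Between the Alcam+ populations it was not called despite the separation of the libraries (log2 fold change -2.61, SE 1.00, adjusted p = 0.278). Col27a1, a chain of growing cartilage, read 57.0, 35.1 and 204 CPM in Itga8+ cells, 73.8, 143 and 43.0 CPM in Itga8- cells, 5.86, 9.16 and 6.65 CPM in Sca-1+ cells and 14.8, 7.51 and 31.7 CPM in CD51+CD140a+ cells, with folds of 13.7 and 12 over Sca-1+ cells and 5.48 and 4.81 over CD51+CD140a+ cells for Itga8+ cells and Itga8- cells in turn. Col24a1 gave a fold of 12 (Itga8+ over CD51+CD140a+) without Itga8+ replicate 3. Col24a1 had folds of 42.6 (Itga8+ over CD51+CD140a+) and 261 (Itga8- over CD51+CD140a+) without CD51+CD140a+ replicate 1. Col24a1 had folds of 25.7 (Itga8- over Sca-1+) and 76.7 (Itga8- over CD51+CD140a+) without Itga8- replicate 2. Col27a1 gave folds of 6.22 (Itga8+ over Sca-1+) and 2.55 (Itga8+ over CD51+CD140a+) without Itga8+ replicate 3. Col27a1 had folds of 8.84 (Itga8+ over CD51+CD140a+) and 7.76 (Itga8- over CD51+CD140a+) without CD51+CD140a+ replicate 3. Col27a1 had a fold of 7.86 (Itga8- over Sca-1+) without Itga8- replicate 2.

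Non-collagen cartilage genes moved in the same direction between the Alcam+ populations and the others. The summed CPM of 12 such genes (Acan, Sox9, Sox5, Sox6, Matn1, Matn3, Hapln1, Chad, Cnmd, Epyc, Ucma and Comp) ran from 29318 to 36615 in Itga8+ cells, 17960 to 21802 in Itga8- cells, 13683 to 16237 in Sca-1+ cells and 224 to 440 in CD51+CD140a+ cells. At least 11 of the 12 were over the floor in every library. Against Sca-1+ cells 9 of the 12 were called higher in each Alcam+ population, beside 12.9% of all genes in Itga8+ cells and 14.5% in Itga8- cells. Unlike Col2a1, 9 of the 12 were also called higher in Sca-1+ than in CD51+CD140a+ cells, beside 11.2% of all genes. The Sca-1+ sum came mainly from Chad (6591 CPM) and Comp (7985 CPM). Matn3 (3988 CPM in Itga8+ and 17.8 CPM in Sca-1+ cells) and Cnmd (8024 and 91.1 CPM) were far lower in Sca-1+ cells. Between Itga8+ cells and Itga8- cells 0 of the 12 were called by edgeR, where 1.66% and 2.16% of all genes were, and 0 of 12 beside such shares is no result about these genes. The part of cartilage cells in these collagen levels was not tested.

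Col10a1, the network collagen of hypertrophic cartilage, did not follow Col2a1. It was at 13.3, 0 and 0 CPM in Itga8+ cells and 12.7, 192 and 26.4 CPM in Itga8- cells. In Sca-1+ cells Col10a1 was at 16.0, 5.60 and 10.7 CPM, and in CD51+CD140a+ cells 0, 0 and 0.612 CPM, so only 1 of the 3 Itga8+ libraries had any count. It was called higher than CD51+CD140a+ cells in Itga8- cells, by 383-fold (log2 SE 2.29, adjusted p = 0.0147), and in Sca-1+ cells, by 53.6-fold (log2 SE 2.07, adjusted p = 0.0824). Of these calls, the last was lost without Sca-1+ replicate 1, 2 or 3 or CD51+CD140a+ replicate 1 or 2 (log2 fold change 5.14 to 6.05 over the 11 fits without 1 library in which both populations stayed over the floor). Between the Alcam+ populations it was not called (log2 fold change -4.12, SE 1.82, adjusted p = 0.384). Col10a1 gave a fold of 95.9 (Itga8- over CD51+CD140a+) without Itga8- replicate 2. Col10a1 had a fold of 252 (Itga8- over CD51+CD140a+) without CD51+CD140a+ replicate 1. Col10a1 had a fold of 254 (Itga8- over CD51+CD140a+) without CD51+CD140a+ replicate 2. Col10a1 has no fold (Itga8- over CD51+CD140a+) without CD51+CD140a+ replicate 3, where the lower population was at or under the floor in both libraries left.

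**Figure D4:**
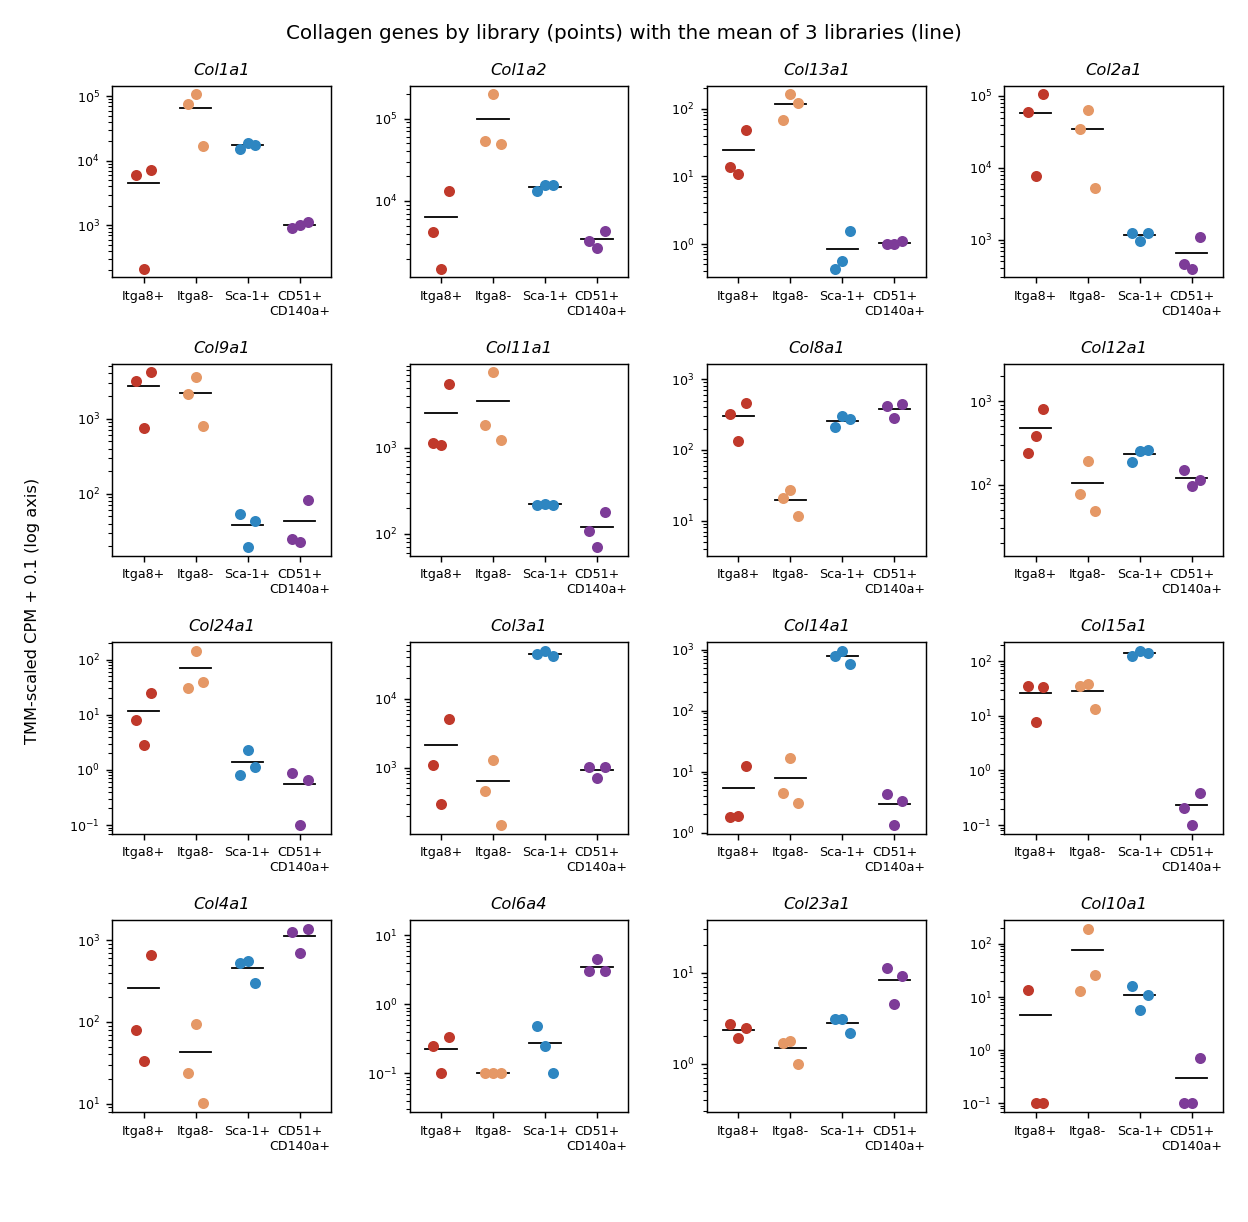
TMM-scaled CPM + 0.1 on a log axis for 16 collagen genes in the 4 populations, with 1 point per library and a line at the mean of 3. The Itga8- points are the highest for Col1a2, Col13a1 and Col24a1, the Sca-1+ points for Col3a1, Col14a1 and Col15a1, and the CD51+CD140a+ points for Col4a1, Col6a4 and Col23a1, while for Col8a1 the Itga8- points lie below all others.

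Col8a1 (chr16:57624258-57754737) and Col12a1 were the 2 collagen genes called higher in Itga8+ cells than in Itga8- cells. Col8a1, a chain of the short-chain network collagen found under endothelium and in mesenchyme, was at 321, 132 and 459 CPM in Itga8+ cells and 20.6, 27.3 and 11.5 CPM in Itga8- cells. In Sca-1+ cells Col8a1 was at 211, 297 and 272 CPM, and in CD51+CD140a+ cells 415, 284 and 444 CPM. The 3 Itga8- libraries lay below all 9 others, and the other 3 populations overlapped. Itga8- cells were lower than Itga8+ cells by 15.4-fold (log2 SE 0.49, adjusted p = 0.00125), than Sca-1+ cells by 13.1-fold (log2 SE 0.48, adjusted p = 0.000323) and than CD51+CD140a+ cells by 19.3-fold (log2 SE 0.49, adjusted p = 7.21e-05). All 3 calls held under every alternative, and the log2 fold change between the Alcam+ populations stayed between 3.53 and 4.32. Capitals mark the 4 matches to GGGCGG on either strand in its window (chr16:57754688-57754987, minus strand).

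Col8a1: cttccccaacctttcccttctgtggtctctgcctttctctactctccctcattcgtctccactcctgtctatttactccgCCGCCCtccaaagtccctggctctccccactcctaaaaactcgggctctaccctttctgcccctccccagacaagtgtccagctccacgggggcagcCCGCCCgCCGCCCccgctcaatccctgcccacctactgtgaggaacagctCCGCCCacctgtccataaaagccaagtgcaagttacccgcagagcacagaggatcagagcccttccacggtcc

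The partner chain Col8a2 had another order. It was at 165, 29.4 and 591 CPM in Itga8+ cells and 38.2, 96.9 and 8.27 CPM in Itga8- cells. In Sca-1+ cells Col8a2 was at 268, 254 and 287 CPM, and in CD51+CD140a+ cells 2.62, 2.24 and 16.3 CPM. CD51+CD140a+ cells were the low population for Col8a2 and Itga8- cells for Col8a1. Col8a2 was higher than in CD51+CD140a+ cells in Itga8+ cells, by 37.2-fold (log2 SE 1.22, adjusted p = 0.00766), in Sca-1+ cells, by 38.3-fold (log2 SE 1.22, adjusted p = 0.00996), and in Itga8- cells, by 6.79-fold (log2 SE 1.09, adjusted p = 0.0755), a call lost without Itga8- replicate 1 or 2 or CD51+CD140a+ replicate 1 or 2 (log2 fold change 1.72 to 4.29 over the 12 fits without 1 library), where Itga8- replicate 3 overlapped with the CD51+CD140a+ libraries. Between the Alcam+ populations the test did not call it (log2 fold change 2.45, SE 1.07, adjusted p = 0.378). Col8a2 gave a fold of 13.9 (Itga8+ over CD51+CD140a+) without Itga8+ replicate 3. Col8a2 had folds of 108 (Itga8+ over CD51+CD140a+) and 111 (Sca-1+ over CD51+CD140a+) without CD51+CD140a+ replicate 3.

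Col12a1 is a FACIT collagen of tendon and other dense fibrous tissue. It was at 236, 379 and 812 CPM in Itga8+ cells and 76.8, 192 and 48.9 CPM in Itga8- cells. In Sca-1+ cells Col12a1 was at 189, 252 and 258 CPM, and in CD51+CD140a+ cells 149.8, 96.1 and 115 CPM, and every Itga8+ library exceeded every Itga8- library. Itga8+ cells were higher than Itga8- cells by 4.49-fold (log2 SE 0.53, adjusted p = 0.0570) and than CD51+CD140a+ cells by 3.95-fold (log2 SE 0.53, adjusted p = 0.0156). The first call was lost when Itga8+ replicate 3, Itga8- replicate 1 or Itga8- replicate 3 was left out, with log2 fold changes between 1.53 and 2.93. Tendon genes moved in the same direction, with 5 of 6 (Scx, Tnmd, Mkx, Kera, Fmod and Thbs4) called higher in Itga8+ cells than in Itga8- cells, beside 1.66% of all genes. Their sums were 12896 to 23551 CPM in Itga8+ cells, 3788 to 6396 CPM in Itga8- cells, 6266 to 9352 CPM in Sca-1+ cells and 83.4 to 113 CPM in CD51+CD140a+ cells. Their part in the level of Col12a1 was not tested. Col12a1 gave a fold of 2.54 (Itga8+ over CD51+CD140a+) without Itga8+ replicate 3.

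Of the other FACIT genes, Col14a1, which binds fibrils of skin and tendon, was a gene of Sca-1+ cells. It was at 1.73, 1.77 and 12.4 CPM in Itga8+ cells and 4.33, 16.5 and 2.94 CPM in Itga8- cells. In Sca-1+ cells Col14a1 was at 796, 962 and 584 CPM, and in CD51+CD140a+ cells 4.26, 1.23 and 3.22 CPM. Sca-1+ cells exceeded Itga8+ cells by 148-fold (log2 SE 1.03, adjusted p = 0.000845), Itga8- cells by 98.4-fold (log2 SE 1.00, adjusted p = 0.000845) and CD51+CD140a+ cells by 268-fold (log2 SE 1.07, adjusted p = 0.00021), and the other 3 populations overlapped. Col22a1, a collagen of tissue junctions such as that of muscle and tendon, was instead 1 of the 12 Alcam+ genes, with 239, 148 and 1719 CPM in Itga8+ cells, 232, 1183 and 225 CPM in Itga8- cells, 10.7, 24.0 and 14.7 CPM in Sca-1+ cells and 5.68, 8.08 and 6.54 CPM in CD51+CD140a+ cells and folds of 42.6 and 33.1 over Sca-1+ cells and 104 and 80.7 over CD51+CD140a+ cells. Col16a1 was the 1 collagen gene with a mean of at least 10 TPM in a population that was called in no comparison. Its values, 136, 64.4 and 1151 CPM in Itga8+ cells, 116, 467 and 38.5 CPM in Itga8- cells, 180.1, 236 and 141 CPM in Sca-1+ cells and 128, 60.9 and 175 CPM in CD51+CD140a+ cells, overlapped across all 4 populations. Col19a1 and Col20a1 were also never called and reached at most 0.628 and 5.47 CPM in any library. Col14a1 gave a fold of 458 (Sca-1+ over Itga8+) without Itga8+ replicate 3. Col14a1 had a fold of 220.0 (Sca-1+ over Itga8-) without Itga8- replicate 2. Col22a1 gave folds of 11.5 (Itga8+ over Sca-1+) and 28.6 (Itga8+ over CD51+CD140a+) without Itga8+ replicate 3. Col22a1 had folds of 13.5 (Itga8- over Sca-1+) and 33.6 (Itga8- over CD51+CD140a+) without Itga8- replicate 2.

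Of the 6 type IV genes 2 were called lower and 3 higher in Itga8- cells than in CD51+CD140a+ cells (14.9% and 20.4% of all genes). The 2 lower ones, the pair that leads the class, were those highest in CD51+CD140a+ cells. Col4a1 (chr8:11198423-11312826, minus strand) and Col4a2 (chr8:11312805-11449287, plus strand) encode the chains of the most widespread basement membrane network. Col4a1 was at 80.1, 33.7 and 661 CPM in Itga8+ cells and 23.7, 93.1 and 10.0 CPM in Itga8- cells. In Sca-1+ cells Col4a1 was at 523, 551 and 300.4 CPM, and in CD51+CD140a+ cells 1272, 706 and 1376 CPM. Col4a2 was at 75.4, 72.7 and 726 CPM in Itga8+ cells and 34.2, 122 and 14.6 CPM in Itga8- cells. In Sca-1+ cells Col4a2 was at 328, 365 and 213 CPM, and in CD51+CD140a+ cells 792, 380.4 and 938 CPM. CD51+CD140a+ cells were above all 9 other libraries for Col4a1 and above Sca-1+ and Itga8- libraries for Col4a2, where Itga8+ replicate 3 reached their range. They exceeded Itga8- cells by 26.4-fold (log2 SE 1.10, adjusted p = 0.00723) and 12.4-fold (log2 SE 0.98, adjusted p = 0.0154). Sca-1+ cells exceeded Itga8- cells by 10.8-fold (log2 SE 1.04, adjusted p = 0.0353) and 5.31-fold (log2 SE 0.93, adjusted p = 0.0848), the first being a call lost without Itga8- replicate 1 or 3 (log2 fold change -4.80 to -2.98 over the 12 fits without 1 library) and the second a call lost without Itga8- replicate 1 or 3, Sca-1+ replicate 1, 2 or 3 or CD51+CD140a+ replicate 1 or 3 (log2 fold change -3.67 to -1.96 over the 12 fits without 1 library). Neither gene was called between CD51+CD140a+ cells and Itga8+ cells (log2 fold changes of Itga8+ over CD51+CD140a+ -2.12 and -1.27, SE 0.98 and 0.89) or Sca-1+ cells (-1.29 and -1.22, SE 0.96 and 0.89). Col4a1 gave a fold of 66.4 (CD51+CD140a+ over Itga8-) without Itga8- replicate 2. Col4a2 gave a fold of 28.9 (CD51+CD140a+ over Itga8-) without Itga8- replicate 2. The 7 endothelial genes listed, markers of cells that also make type IV collagen, summed to 75.3 to 111 CPM in Sca-1+ cells, mostly Tek (69.9 CPM), and to 11.57 to 34.4 CPM in the other populations, with Pecam1 and Cdh5 at most 6.40 and 3.52 CPM on average.

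The genes lie head to head, and exons of other genes on the opposite strand, including each other's, overlap 0.29% of the exons of Col4a1 and 0.98% of those of Col4a2. Without strand information reads there cannot be told apart. The window of Col4a2 (chr8:11312555-11312854, plus strand) is shown because the pair moved together, and the 78 bases in capitals are those that also belong to the window of Col4a1.

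Col4a2: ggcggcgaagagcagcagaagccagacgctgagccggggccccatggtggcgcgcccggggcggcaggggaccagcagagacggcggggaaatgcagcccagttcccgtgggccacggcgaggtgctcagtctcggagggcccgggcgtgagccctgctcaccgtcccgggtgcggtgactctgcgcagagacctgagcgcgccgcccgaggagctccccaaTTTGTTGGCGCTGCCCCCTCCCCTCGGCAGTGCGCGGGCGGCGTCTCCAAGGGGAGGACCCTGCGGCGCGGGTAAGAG

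The remaining type IV chains, which form the networks of kidney, lung and smooth muscle, had other orders. Col4a5 was at 2.23, 0.312 and 3.18 CPM in Itga8+ cells and 2.29, 3.52 and 0.2998 CPM in Itga8- cells. In Sca-1+ cells Col4a5 was at 101, 103 and 45.7 CPM, and in CD51+CD140a+ cells 0, 0.373 and 0.548 CPM. It was higher in Sca-1+ cells than in Itga8+ cells by 43.7-fold (log2 SE 1.10, adjusted p = 0.00659), than in Itga8- cells by 40.4-fold (log2 SE 1.09, adjusted p = 0.00540) and than in CD51+CD140a+ cells by 271-fold (log2 SE 1.26, adjusted p = 0.000693). The Alcam+ populations were called above CD51+CD140a+ cells with overlapping libraries, in Itga8+ cells by 6.20-fold (log2 SE 1.06, adjusted p = 0.0795), a call lost without Itga8+ replicate 1 or 3, Itga8- replicate 1, Sca-1+ replicate 1 or 2 or CD51+CD140a+ replicate 1 or 2 (log2 fold change 2.04 to 3.33 over the 12 fits without 1 library), and in Itga8- cells by 6.71-fold (log2 SE 1.06, adjusted p = 0.0688). Of these calls, the last was lost without Itga8- replicate 1 or 2 or CD51+CD140a+ replicate 1 or 2 (log2 fold change 2.11 to 3.44 over the 12 fits without 1 library). Col4a6, whose start lies 1309 bases from that of Col4a5 on the other strand, reached 5.70 and 2.39 CPM in 2 Sca-1+ libraries and had 0 counts in replicate 3, and it had 0 counts in all 3 CD51+CD140a+ libraries. Against the floor of those libraries it was at least 30.6-fold higher in Sca-1+ cells on average (at least 13.6-fold without Sca-1+ replicate 1) and at least 2.63-fold higher in Itga8+ cells, and the second of these calls held only without Itga8- replicate 2 or Sca-1+ replicate 3 among the fits that left out 1 library. Col4a3 and Col4a4, also head to head with starts 72 bases apart, stayed under 5 CPM. Both were called higher in Itga8+ cells than in CD51+CD140a+ cells, by 9.16-fold (log2 SE 0.82, adjusted p = 0.0125) and 7.75-fold (log2 SE 0.84, adjusted p = 0.0206), and in Itga8- cells than in CD51+CD140a+ cells, by 6.07-fold (log2 SE 0.81, adjusted p = 0.0294), a call lost without Itga8- replicate 1 (log2 fold change 1.83 to 3.42 over the 12 fits without 1 library), and 4.96-fold (log2 SE 0.83, adjusted p = 0.0527). The last of these calls was lost without Itga8- replicate 1 or CD51+CD140a+ replicate 1 or 3 (log2 fold change 1.96 to 3.00 over the 12 fits without 1 library). Col4a3 was also higher in Sca-1+ cells than in CD51+CD140a+ cells, by 7.62-fold (log2 SE 0.81, adjusted p = 0.0266). Col4a5 gave a fold of 66.2 (Sca-1+ over Itga8+) without Itga8+ replicate 3. Col4a5 had a fold of 64.7 (Sca-1+ over Itga8-) without Itga8- replicate 2. Col4a5 had a fold of 179 (Sca-1+ over CD51+CD140a+) without CD51+CD140a+ replicate 1. Col4a5 had a fold of 439 (Sca-1+ over CD51+CD140a+) without CD51+CD140a+ replicate 3. Col4a3 gave folds of 16.2 (Itga8+ over CD51+CD140a+) and 13.4 (Sca-1+ over CD51+CD140a+) without CD51+CD140a+ replicate 1. Col4a4 gave a fold of 12.5 (Itga8+ over CD51+CD140a+) without CD51+CD140a+ replicate 2.

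All 6 type VI genes were called higher in Sca-1+ cells than in Itga8- cells (11.9% of all genes), and 3 of the 6 higher than in Itga8+ cells (8.89%). The 6 include Col6a4, whose call rested on a level near the floor. Of the 3 main chains, only Col6a3 was above all other libraries in Sca-1+ cells. Col6a1 was at 2101, 448 and 4312 CPM in Itga8+ cells and 889, 1779.5 and 356 CPM in Itga8- cells. In Sca-1+ cells Col6a1 was at 4089.7, 5036 and 4011 CPM, and in CD51+CD140a+ cells 1615, 1653 and 2188 CPM. Col6a2 was at 1062, 265 and 2147 CPM in Itga8+ cells and 461, 981 and 282 CPM in Itga8- cells. In Sca-1+ cells Col6a2 was at 1899, 2375 and 1859.5 CPM, and in CD51+CD140a+ cells 567, 427 and 749 CPM. Col6a3 was at 111, 112 and 482 CPM in Itga8+ cells and 75.0, 185 and 37.1 CPM in Itga8- cells. In Sca-1+ cells Col6a3 was at 1042, 1440.5 and 911 CPM, and in CD51+CD140a+ cells 66.7, 48.8 and 71.9 CPM. For Col6a1 and Col6a2 Itga8+ replicate 3 lay inside the Sca-1+ range, and for Col6a3 no library did. Sca-1+ cells exceeded Itga8- cells for each, by 4.34-fold (log2 SE 0.69, adjusted p = 0.0467), 3.56-fold (log2 SE 0.63, adjusted p = 0.0573) and 11.4-fold (log2 SE 0.69, adjusted p = 0.00413), the first being a call lost without Itga8- replicate 1 or 3 or Sca-1+ replicate 2 (log2 fold change -2.85 to -1.72 over the 12 fits without 1 library) and the second a call lost without Itga8- replicate 1 or 3 or Sca-1+ replicate 1, 2 or 3 (log2 fold change -2.50 to -1.51 over the 12 fits without 1 library). For Col6a3 they also exceeded Itga8+ cells, by 4.81-fold (log2 SE 0.65, adjusted p = 0.0353), a call lost without Itga8+ replicate 1 or Sca-1+ replicate 2 (log2 fold change -3.38 to -1.93 over the 12 fits without 1 library), and CD51+CD140a+ cells, by 18.1-fold (log2 SE 0.71, adjusted p = 0.00126). Itga8+ cells exceeded CD51+CD140a+ cells in Col6a3 by 3.76-fold (log2 SE 0.64, adjusted p = 0.0424). This call was lost without Itga8+ replicate 3 or CD51+CD140a+ replicate 2 (log2 fold change 0.83 to 2.27 over the 12 fits without 1 library). Col6a2 was higher in Sca-1+ than in CD51+CD140a+ cells by 3.52-fold (log2 SE 0.63, adjusted p = 0.0704), a call lost without Sca-1+ replicate 1, 2 or 3 or CD51+CD140a+ replicate 1, 2 or 3 (log2 fold change 1.64 to 2.04 over the 12 fits without 1 library), and Col6a1 was not called there (log2 fold change 1.27, SE 0.67, adjusted p = 0.252). Col6a3 gave a fold of 20.7 (Sca-1+ over Itga8-) without Itga8- replicate 2.

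The 3 other type VI chains, Col6a4, Col6a5 and Col6a6, lie in a row on chromosome 9 (chr9:105687809-106096783) and can take the place of the Col6a3 chain. They did not share an order. Col6a6 was at 0, 0 and 0.0578 CPM in Itga8+ cells and 0, 0.139 and 0 CPM in Itga8- cells. In Sca-1+ cells Col6a6 was at 79.2, 106 and 44.3 CPM, and in CD51+CD140a+ cells 0.0273, 0.0287 and 0.322 CPM, and all 6 Alcam+ libraries were at or under the floor. Sca-1+ cells were therefore at least 480.4-fold higher than Itga8+ cells (adjusted p = 0.000132), at least 489.9-fold higher than Itga8- cells (adjusted p = 8.62e-05) and higher than CD51+CD140a+ cells by 605-fold (log2 SE 0.98, adjusted p = 4.47e-05). Col6a5 was high in Sca-1+ and CD51+CD140a+ cells and low in the Alcam+ populations, at 0.346, 0.104 and 0.636 CPM in Itga8+ cells and 0.199, 2.04 and 1.14 CPM in Itga8- cells. In Sca-1+ cells Col6a5 was at 37.0, 49.2 and 22.1 CPM, and in CD51+CD140a+ cells 9.13, 24.8 and 20.3 CPM. It was lower in Itga8+ cells than in Sca-1+ cells by 99.4-fold (log2 SE 0.87, adjusted p = 0.000489) and than in CD51+CD140a+ cells by 49.8-fold (log2 SE 0.84, adjusted p = 0.000403), and lower in Itga8- cells by 31.8-fold (log2 SE 0.78, adjusted p = 0.00107) and 15.9-fold (log2 SE 0.75, adjusted p = 0.00196). Col6a4 was at 2.90, 4.47 and 2.93 CPM in CD51+CD140a+ cells and at most 0.387 CPM in any other library, with 0 counts in the 3 Itga8- libraries. CD51+CD140a+ cells were at least 21.99-fold higher than Itga8- cells. The mean of Itga8+ cells also lay under their floor, and against that floor CD51+CD140a+ cells were 21.6-fold higher (adjusted p = 0.0130). This is not a lower limit, since the fitted fold was 17.4 without Itga8+ replicate 2. Without Itga8+ replicate 3 no fold is given, as both Itga8+ libraries left were at or under the floor. CD51+CD140a+ cells were higher than Sca-1+ cells by 19.0-fold (log2 SE 1.12, adjusted p = 0.0261). The call of Col6a4 between Itga8- cells and Sca-1+ cells rested on a level near the floor in Sca-1+ cells (0.387, 0.153 and 0 CPM), with a mean 1.15 times the floor of Itga8- cells that fell under it without Sca-1+ replicate 1, so no fold is given. This call held only without Itga8+ replicate 2 or 3 or Sca-1+ replicate 3 among the fits that left out 1 library. Col6a6 has no fold (Sca-1+ over CD51+CD140a+) without CD51+CD140a+ replicate 3, where the lower population was at or under the floor in both libraries left. Col6a5 gave folds of 159 (Sca-1+ over Itga8+) and 77.7 (CD51+CD140a+ over Itga8+) without Itga8+ replicate 3. Col6a5 had folds of 56.4 (Sca-1+ over Itga8-) and 27.6 (CD51+CD140a+ over Itga8-) without Itga8- replicate 2. Col6a4 gave a fold of 12.6 (CD51+CD140a+ over Sca-1+) without Sca-1+ replicate 3. Col6a4 has no fold (CD51+CD140a+ over Sca-1+) without Sca-1+ replicate 1, where the lower population was at or under the floor in both libraries left.

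The multiplexins separated from each other. Col15a1, a proteoglycan of basement membranes, was at 35.6, 7.74 and 33.8 CPM in Itga8+ cells and 34.6, 38.3 and 13.2 CPM in Itga8- cells. In Sca-1+ cells Col15a1 was at 124, 155 and 143 CPM, and in CD51+CD140a+ cells 0.109, 0 and 0.290 CPM. The 3 Sca-1+ libraries were the highest and the 3 CD51+CD140a+ libraries the lowest, with no overlap between these and the Alcam+ libraries. CD51+CD140a+ cells were lower than Sca-1+ cells by 1046-fold (log2 SE 1.00, adjusted p = 2.89e-05), than Itga8+ cells by 191-fold (log2 SE 0.92, adjusted p = 0.000102) and than Itga8- cells by 213-fold (log2 SE 0.93, adjusted p = 9.07e-05). Sca-1+ cells were above Itga8+ cells by 5.48-fold (log2 SE 0.69, adjusted p = 0.0321) and above Itga8- cells by 4.90-fold (log2 SE 0.68, adjusted p = 0.0335). The last of these calls was lost without Itga8- replicate 3 (log2 fold change -2.60 to -1.95 over the 12 fits without 1 library). Col18a1, the source of endostatin, was at 145, 43.7 and 1032 CPM in Itga8+ cells and 32.6, 102 and 8.81 CPM in Itga8- cells. In Sca-1+ cells Col18a1 was at 172, 195 and 112 CPM, and in CD51+CD140a+ cells 35.4, 25.7 and 43.0 CPM, and 1 comparison called it, Itga8+ over CD51+CD140a+ cells by 11.73-fold (log2 SE 1.05, adjusted p = 0.0253). This call was lost without Itga8+ replicate 3 (log2 fold change 1.45 to 4.10 over the 12 fits without 1 library). Col15a1 gave folds of 420.0 (Itga8+ over CD51+CD140a+), 469.7 (Itga8- over CD51+CD140a+) and 2304 (Sca-1+ over CD51+CD140a+) without CD51+CD140a+ replicate 3. In that fit the CD51+CD140a+ libraries left were at 0.109 and 0 CPM, beside floors of 0.0820 and 0.0860 CPM, so these folds are uncertain.

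Of the 4 membrane-spanning collagens, Col13a1, found at cell adhesions, was the gene of Itga8- cells. It was at 13.8, 10.7 and 48.0 CPM in Itga8+ cells and 67.1, 163 and 122 CPM in Itga8- cells. In Sca-1+ cells Col13a1 was at 0.332, 0.458 and 1.45 CPM, and in CD51+CD140a+ cells 0.902, 0.917 and 0.999 CPM. The populations fell in an order without overlap from Itga8- cells to Itga8+ cells to the other 2, which overlapped. Itga8- cells were above Itga8+ cells by 4.86-fold (log2 SE 0.62, adjusted p = 0.0872), a call that held only without Itga8+ replicate 3, Itga8- replicate 1 or Sca-1+ replicate 3 among the fits that left out 1 library (log2 fold change -3.26 to -1.90 over the 12 fits without 1 library), above Sca-1+ cells by 154-fold (log2 SE 0.79, adjusted p = 0.000111) and above CD51+CD140a+ cells by 124-fold (log2 SE 0.77, adjusted p = 5.32e-05). Itga8+ cells were above the same 2 populations by 31.7-fold (log2 SE 0.72, adjusted p = 0.000915) and 25.6-fold (log2 SE 0.70, adjusted p = 0.000433). Col23a1 was highest in CD51+CD140a+ cells, with 11.1, 4.50 and 9.21 CPM in CD51+CD140a+ cells and 0.899 to 3.04 CPM in the other 9 libraries, and CD51+CD140a+ cells exceeded Itga8+ cells, Itga8- cells and Sca-1+ cells by 3.64, 5.93 and 3.04-fold (adjusted p = 0.00774, 0.00127 and 0.0228), the last being a call lost without CD51+CD140a+ replicate 1 (log2 fold change -1.90 to -1.33 over the 12 fits without 1 library). Col25a1 belonged to the 12 Alcam+ genes, at 2.96 to 18.3 CPM in the Alcam+ libraries and at most 0.889 CPM elsewhere, and its call between Itga8- cells and CD51+CD140a+ cells (8.09-fold, adjusted p = 0.0304) was lost without Itga8- replicate 2 (log2 fold change 2.15 to 3.32 over the 12 fits without 1 library). Col17a1, a collagen of hemidesmosomes, was at most 2.34 CPM, and against the floor of CD51+CD140a+ cells it was at least 10.6-fold higher in Itga8+ cells (at least 7.04-fold without Itga8+ replicate 3) and at least 16.6-fold higher in Itga8- cells. Col13a1 gave folds of 15.6 (Itga8+ over Sca-1+) and 13.0 (Itga8+ over CD51+CD140a+) without Itga8+ replicate 3. Col13a1 had folds of 60.2 (Itga8+ over Sca-1+) and 293 (Itga8- over Sca-1+) without Sca-1+ replicate 3.

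Col26a1 and Col28a1 belong to no larger class. Col26a1 was at 45.7, 13.0 and 60.5 CPM in Itga8+ cells and 26.5, 29.6 and 7.79 CPM in Itga8- cells. In Sca-1+ cells Col26a1 was at 0.111, 0.254 and 0 CPM, and in CD51+CD140a+ cells 2.24, 3.58 and 4.03 CPM. It was the 1 collagen gene called lower in Sca-1+ cells than in each other population, and the mean of Sca-1+ cells (0.122 CPM) lay under their mean floor (0.153 CPM). Against that floor Itga8+ cells were 259.7-fold higher (adjusted p = 0.000278) and Itga8- cells 139-fold (adjusted p = 0.000294). CD51+CD140a+ cells were 21.5-fold higher (adjusted p = 0.00273). These are not lower limits, since Sca-1+ replicate 2 (0.254 CPM) was over the floor. Without Sca-1+ replicate 3 the fitted folds were 209.5, 112 and 17.3. Without Sca-1+ replicate 2 no fold is given, as both Sca-1+ libraries left were at or under the floor. Col28a1 ranged from 0.201 to 13.2 CPM and was called higher in Itga8+ cells, with overlap, and in Itga8- cells than in CD51+CD140a+ cells, by 5.73-fold (log2 SE 0.97, adjusted p = 0.0700), a call lost without Itga8+ replicate 3 or CD51+CD140a+ replicate 2 or 3 (log2 fold change 0.97 to 3.25 over the 12 fits without 1 library), and 5.52-fold (log2 SE 0.97, adjusted p = 0.0745). The last of these calls was lost without Itga8- replicate 2 or CD51+CD140a+ replicate 2 or 3 (log2 fold change 1.53 to 3.20 over the 12 fits without 1 library). Col7a1, the anchoring fibril collagen of skin, reached at most 2.28 CPM and was never called.

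Over all 38 RefSeq windows that matched 35 of the 44 genes, GGGCGG stood on either strand in 23 (60.5%), against 35.7% of all 32851 windows. TATAAA was in 5 (13.2%, against 13.6%), CCAAT in 13 (34.2%, against 37.4%), ACAAAG, letters that Sox proteins can bind, in 5 (13.2%, against 18.7%), and TGTGGT, letters that Runx proteins can bind, in 3 (7.89%, against 16.8%). Each word was searched on both strands, and a base could count for more than 1 word. The genes holding TATAAA were Col3a1, Col10a1, Col11a2, Col13a1 and Col17a1. The median GC content of the collagen windows was 59.8%, against 52.7% over all windows. Col1a1, Col2a1, Col4a3, Col5a2, Col9a3, Col12a1, Col14a1, Col22a1 and Col26a1 were not matched.

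Chains that join in 1 molecule did not keep 1 ratio across populations. The TPM of Col1a1 over that of Col1a2, which join as 2 chains to 1 in type I collagen, was 2.16, 2.29 and 2.16 in the Sca-1+ libraries and 0.521, 0.707 and 0.491 in the CD51+CD140a+ libraries. In the Alcam+ populations it ranged more widely, at 2.68, 0.268 and 1.03 in Itga8+ cells and 2.69, 1.03 and 0.634 in Itga8- cells, so both ranges overlapped with those of Sca-1+ and CD51+CD140a+ cells. The transcripts differ in GC content, with 57.8% for Col1a1 and 46.8% for Col1a2, and over all genes the median log2 deviation from the population's mean of the genes highest in GC minus that of those lowest in GC, 3 groups of equal size being made, was -0.33 in Itga8+ replicate 2, the library with the lowest ratio, and 0.21 in Itga8+ replicate 1, the library with the highest ratio in that population. In Itga8- cells the same gap was 0.031, -0.040 and -0.018 in replicates 1, 2 and 3. The part of GC content in the ratio was not tested.

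Col4a1 over Col4a2 separated the Alcam+ populations from the others. It was 0.943, 0.410 and 0.807 in Itga8+ cells and 0.614, 0.678 and 0.609 in Itga8- cells, all below 1, and 1.42, 1.34 and 1.25 in Sca-1+ cells and 1.42, 1.65 and 1.30 in CD51+CD140a+ cells, all above 1. Col3a1 over Col1a1 was 0.00396, 0.00809 and 0.00586 in Itga8- cells and 1.96, 1.77 and 1.56 in Sca-1+ cells, with the other 2 populations in between. Col8a1 over Col8a2 was 90.8, 72.8 and 15.6 in CD51+CD140a+ cells and at most 2.57 in any library from bone. Col6a3 over Col6a1 was lowest in CD51+CD140a+ cells, at 0.0151, 0.0108 and 0.0120, and 0.0932, 0.105 and 0.0831 in Sca-1+ cells. These ratios compare transcripts of different length and GC content, and levels relative to 1 are less certain than differences between populations for the same pair.

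**Figure D5:**
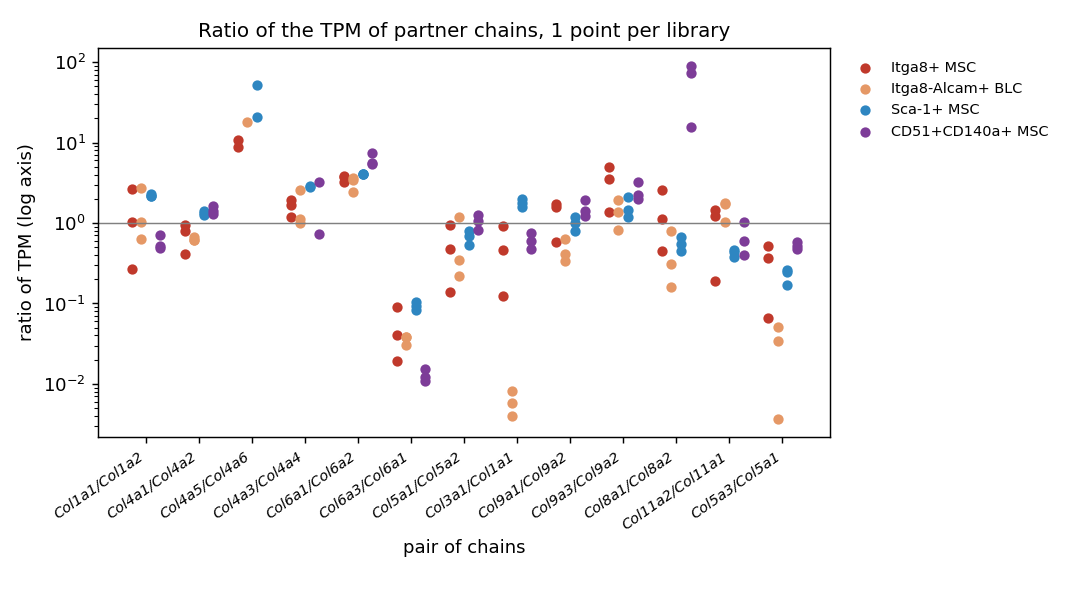
Ratio of the TPM of 2 collagen chains (log axis, line at 1) for 13 pairs of genes, with 1 point per library coloured by population and points only where both genes are over the floor. Col4a1/Col4a2 is below 1 in all Alcam+ libraries and above 1 in all others, Col3a1/Col1a1 is lowest in Itga8- cells, and Col8a1/Col8a2 is highest in CD51+CD140a+ cells.

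Of 33 genes that modify, fold, cut or cross-link collagen, 18 were called higher and 5 lower in Itga8+ cells than in CD51+CD140a+ cells, 19 higher and 3 lower in Itga8- cells, and 11 higher and 1 lower in Sca-1+ cells. Over all genes the shares higher and lower were 21.2% and 14.3%, 20.4% and 14.9%, and 11.2% and 9.30%. The median log2 fold changes of the 33 were 1.25, 1.36 and 0.36, against 0.18, 0.091 and -0.0026 over all genes. Against Sca-1+ cells 7 were higher and 5 lower in Itga8+ cells and 10 higher and 3 lower in Itga8- cells, where all genes gave 12.9% and 8.89%, and 14.5% and 11.9% (medians 0.65 and 0.94, against 0.16 and 0.12). Between the Alcam+ populations 1 was higher in Itga8+ cells and 5 in Itga8- cells (1.66% and 2.16% of all genes, median -0.12 against 0.084).

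Among genes acting inside the cell, Serpinh1, the collagen chaperone, was at 7421, 809 and 4871 CPM in Itga8+ cells, 11807, 6411 and 5200.3 CPM in Itga8- cells, 3012, 2791 and 2643 CPM in Sca-1+ cells and 1350.4, 1805 and 1728 CPM in CD51+CD140a+ cells. Itga8+ replicate 2, the library from bone with the lowest share of collagen counts, was the lowest of all 12 in Serpinh1. Itga8- cells exceeded Sca-1+ cells by 2.77-fold (log2 SE 0.59, adjusted p = 0.0951) and CD51+CD140a+ cells by 4.80-fold (log2 SE 0.60, adjusted p = 0.0145). Plod2, the lysyl hydroxylase of bone collagen cross-links, averaged 603 CPM in Itga8+ cells, 889.7 CPM in Itga8- cells, 332 CPM in Sca-1+ cells and 50.9 CPM in CD51+CD140a+ cells, and each of the first 3 exceeded the last, by 11.8, 17.5 and 6.51-fold (adjusted p at most 0.000145). Creb3l1, a transcription factor that acts on type I collagen genes in bone, was higher in Itga8- cells than in Itga8+ cells by 9.26-fold (log2 SE 0.46, adjusted p = 0.00245), than in Sca-1+ cells by 4.28-fold (log2 SE 0.44, adjusted p = 0.00576) and than in CD51+CD140a+ cells by 5.503-fold (log2 SE 0.44, adjusted p = 0.00144).

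Of the enzymes that cut the ends of procollagen, Adamts2 and Adamts14, which remove the amino end, and Bmp1, which removes the carboxyl end, were all higher in Itga8- cells than in Itga8+ cells, by 5.66-fold (log2 SE 0.55, adjusted p = 0.0338), 16.9-fold (log2 SE 0.85, adjusted p = 0.0245) and 4.79-fold (log2 SE 0.50, adjusted p = 0.0360). Adamts2 was highest in CD51+CD140a+ cells (1938 CPM), above Itga8+ cells by 20.4-fold (adjusted p = 0.000244). The procollagen enhancer Pcolce2 averaged 446, 409.9 and 675 CPM in the populations from bone and 6.58 CPM in CD51+CD140a+ cells. The cross-linking enzymes split, since Lox was higher in Itga8- cells than in Itga8+ cells by 7.65-fold (log2 SE 0.67, adjusted p = 0.0400) and Loxl1 lower by 9.30-fold (log2 SE 0.48, adjusted p = 0.00321).

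Of 10 collagen receptor genes, 0 were called between the Alcam+ populations by edgeR, where 1.66% and 2.16% of all genes were, and beside such shares 0 of 10 is no result about the receptors. Itga1, an integrin chain for type IV and type I collagen, was highest in CD51+CD140a+ cells, at 279 CPM against 21.7 CPM in Itga8+ cells (12.9-fold, adjusted p = 0.000225). Itga10, the chain that binds type II collagen on cartilage cells, averaged 11.3, 17.6 and 7.76 CPM in the populations from bone and 0.381 CPM in CD51+CD140a+ cells. Itga11, a chain for fibrillar collagen on fibroblasts, was highest in Sca-1+ cells at 352 CPM, above Itga8+ cells by 5.09-fold (log2 SE 0.85, adjusted p = 0.0828), and Ddr2, a receptor kinase for fibrillar collagen, was also highest there at 509 CPM, above Itga8+ cells by 3.61-fold (log2 SE 0.47, adjusted p = 0.0204). Itgb1, the common partner chain, and Mrc2, which takes up collagen fragments, passed the threshold in no comparison, and Itgb1 had log2 fold changes of -0.90 and -0.92 for Itga8+ cells and Itga8- cells over CD51+CD140a+ cells.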

How the data were processed

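RNA from 2000 sorted cells per library was amplified with SMART-Seq v4, prepared with Nextera XT and sequenced on a NextSeq 500. The raw counts per gene were deposited by the authors, 1 table per library. The submitters' processing notes name FastQC 0.11.7, Trimmomatic 0.38, HISAT2 2.1.0, SAMtools 1.9 and featureCounts 1.6.3 with mm10, whereas the study's methods name TopHat with Bowtie2. The annotation release and the use of strand are not given in the sources used here. No molecular identifiers were described, so PCR copies could not be told from molecules, and the floor of 3 counts covers counting error only.

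The 44 collagen genes and the lists of marker, processing and receptor genes were chosen with earlier results of these data known, and some listed marker genes are not reported here. All 12 libraries, grouped by the labels, were fitted with edgeR 4.0.16 (TMM, quasi-likelihood F-test; R 4.3.3) on the 18648 of 49585 genes that reached 0.5 CPM in 1 or more libraries. A gene was called at a Benjamini-Hochberg adjusted p under 0.1 and a fold above 2, the study's thresholds. The SE of a log2 fold change was taken as its size over the square root of F. CPM were TMM-scaled, and TPM used summed exon lengths of a GENCODE M21 annotation of GRCm38. Every collagen gene was accounted for. Those with a mean of at least 10 TPM in a population and called in at least 1 comparison were given by library. The others were given by range, and some of them, such as Col16a1, Col6a4 and Col23a1, by library. The fit was tested on simulated data. Alternatives were DESeq2 1.42.0, limma 3.58.1 (limma-trend), other scalings, filters and thresholds, fits of 2 populations alone, a replicate block, thinned counts and each library left out. Removing each library's trend with gene length was added after the data were seen.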

Additional observations from a re-analysis of the deposited data

How the results depend on the processing

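Of the 130 calls, 96 held under all 23 alternatives, 34 were lost under at least 1, 33 of them by leaving out 1 library, and 0 reversed direction. An adjusted p under 0.05 ended 22 calls, the replicate block 17, fits of the 2 populations alone 9, limma-trend 5, library totals alone 2, and DESeq2 and thinned counts 1 each. RLE size factors, both other filters and the removal of the length trend ended 0 of the calls they tested. The total of called collagen genes moved by over 1.5 times in 1 of the 6 comparisons, that of Itga8+ with Itga8- cells. Its 6 calls became 2 at an adjusted p under 0.05, 10 with DESeq2 and 1 with the 2 populations alone, and 3 to 6 with 1 library left out (3 without Itga8- replicate 2 or Itga8- replicate 3), and the cause was not tested. By direction, counts moved by over 1.5 times in others too. Besides those given in the report without 1 library, the 3 below CD51+CD140a+ cells became 5 in Itga8+ cells with limma-trend and 6 in Sca-1+ cells with the 2 populations alone. The mean collagen share of counts was 8.47% in Itga8+ cells, 6.01% in Itga8- cells, 6.32% in Sca-1+ cells and 0.845% in CD51+CD140a+ cells without Col1a1 and Col1a2, so that the mean of Itga8- cells, the highest with them, was then below those of Itga8+ and Sca-1+ cells. As a share of summed TPM it was 4.29% in Itga8+ cells, 8.29% in Itga8- cells, 4.01% in Sca-1+ cells and 0.627% in CD51+CD140a+ cells. A limit of these data is the spread between the 3 libraries of each Alcam+ population, at 3 libraries per group.

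With the replicate number as a block, the 6 calls between the Alcam+ populations became 3. Libraries with the same number shared only that number. Over 18 pairs the correlation of their deviations from the population means ran from -0.58 to 0.20, and 5 pairs were over 0.1. Of the 12 libraries, 4 correlated best with their own number.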
